A study of Mus musculus with 20 samples.

Results

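Input DNA, the control of a chromatin immunoprecipitation experiment, was compared between hepatocytes of old and young mice. The 10 input libraries, 5 per age, make up 10 of the 20 libraries of the series. The other 10 hold chromatin pulled down for acetylation of histone H3 at lysine 27 (H3K27ac), found at promoters and enhancers in use. The liver cells were obtained by 2-step perfusion. Young animals were C57BL/6N aged 5 months, and old animals were C57BL/6J aged 23 months. All groups carried human chromatin as a 5% spike-in, which was not analysed here. Age and substrain coincide, so every difference between ages below is also one between substrains, and they cannot be told apart. Whether the 5 libraries of a group stem from 5 animals is not in the labels, and p-values measure only the spread between these samples, which may be technical.

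Input is fragmented chromatin that is sequenced without an antibody step. Its coverage follows the number of copies of a stretch of DNA, so that in male cells the single X and Y chromosomes give less of it than the paired autosomes. It is also known to be uneven where copy number is even, because open chromatin breaks and is recovered more readily and because amplification depends on base composition. Peak callers subtract or divide by it for that reason.

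Input was read from the region lists of the 10 H3K27ac libraries, in which each called region carries the input tags inside it. Each list names an input of its own in its header, which was taken as the input sample of the same age and replicate number, although the labels do not name these directories. Overlapping regions of the 10 lists were merged into 46767, and 12550 of them, called in all 10 libraries, are called shared regions below. Input density is the number of input tags per kb of called region, for a library of 10000000 tags. Since only acetylated regions with at least 4 times more H3K27ac tags than input were listed, coverage elsewhere was not analysed here. The steps of the values gave back the depth of the inputs, from 11310291 tags (old replicate 1) to 15713849 tags (old replicate 2). On the H3K27ac side 4 of 5 hepatocyte marker genes had a called region in all 10 libraries and Hnf4a in 8. No region was called at any of 4 stellate cell markers, at 4 of 5 leukocyte markers (all but Cd68) or at 3 of 4 bile duct markers (all but Sox9), and of 4 endothelial markers Lyve1 was called in 8 libraries and Stab2 in 1.

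The promoters at both ends of the range of input density at gene starts are printed as examples. Those of Btaf1 and Kif11 lie in the only stretch of the genome singled out below. Each is 300 bases long, from 250 before to 50 after the start of transcription, from RefSeq (GRCm38.p6), 5′ to 3′, with the dinucleotide CG in capitals.
Hjurp: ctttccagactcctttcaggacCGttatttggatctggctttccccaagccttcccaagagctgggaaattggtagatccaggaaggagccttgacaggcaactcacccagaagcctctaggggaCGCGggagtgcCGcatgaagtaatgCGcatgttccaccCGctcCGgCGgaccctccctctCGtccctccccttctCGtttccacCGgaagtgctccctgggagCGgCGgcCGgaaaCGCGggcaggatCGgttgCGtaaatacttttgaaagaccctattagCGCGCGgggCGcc
Aadac: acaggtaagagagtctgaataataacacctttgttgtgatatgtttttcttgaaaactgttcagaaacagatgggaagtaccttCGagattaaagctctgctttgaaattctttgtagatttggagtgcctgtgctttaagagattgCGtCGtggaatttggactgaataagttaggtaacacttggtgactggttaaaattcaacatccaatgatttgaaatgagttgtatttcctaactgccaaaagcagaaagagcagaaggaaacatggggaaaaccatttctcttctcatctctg
Btaf1: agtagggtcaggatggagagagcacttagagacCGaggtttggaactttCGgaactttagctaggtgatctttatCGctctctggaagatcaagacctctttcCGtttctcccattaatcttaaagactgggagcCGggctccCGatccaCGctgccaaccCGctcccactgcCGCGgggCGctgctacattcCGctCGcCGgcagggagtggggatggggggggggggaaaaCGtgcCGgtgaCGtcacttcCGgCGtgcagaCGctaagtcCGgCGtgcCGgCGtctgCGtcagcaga
Kif11: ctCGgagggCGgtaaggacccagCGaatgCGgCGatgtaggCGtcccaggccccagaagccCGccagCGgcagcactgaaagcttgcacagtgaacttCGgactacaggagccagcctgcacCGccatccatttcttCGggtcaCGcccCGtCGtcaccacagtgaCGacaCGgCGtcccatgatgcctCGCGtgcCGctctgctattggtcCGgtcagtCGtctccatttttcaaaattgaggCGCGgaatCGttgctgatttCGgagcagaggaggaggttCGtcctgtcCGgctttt
Hjurp, whose protein loads the centromeric histone CENP-A, lies on the minus strand (chr1:88277530-88277829) and had 22 CG dinucleotides and 59.7% G+C. Its region had the highest mean input density of 3225 shared gene start regions with a single promoter, from 28.2 to 42.0 tags per kb in single libraries. Its G+C fell in the third of 5 groups formed by promoter G+C below, whose median input was at most 17.4. As the region of highest input it lies above that median by choice, and G+C outside these 300 bases was not measured. The part of G+C in its rank was not tested. Aadac, an esterase gene of hepatocytes on the plus strand (chr3:60031538-60031837), had 3 CG dinucleotides and 37.3% G+C, and its region had the lowest. Btaf1 (chr19:36925829-36926128, plus strand) and Kif11 (chr19:37376132-37376431, plus strand) had 25 and 28. Of all 21262 RefSeq promoters of this length, 95.4% held at least 1 CG on this strand, which reads the same on the other, and the median was 13.

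The level of input in acetylated regions did not follow age. Over all regions a library had called, the density was 8.96, 7.04, 10.4, 5.91 and 5.29 tags per kb in young replicates 1 to 5 and 7.71, 7.10, 7.88, 6.82 and 8.43 in old replicates 1 to 5. Young replicates 1 and 3 were the highest of all and young replicates 4 and 5 the lowest, so that all old values lay inside the young range. The means were 7.52 ± 2.12 in young and 7.59 ± 0.638 in old inputs (SD, n = 5 each; two-sided exact permutation p = 0.952). The median shared region gave the same picture, with 7.41 ± 2.11 and 7.49 ± 0.738 (exact permutation p = 0.937). The called regions held between 2.89% (old replicate 5) and 4.38% (young replicate 3) of the input tags. These 2 are among 6 tests on values per library, and their p-values adjusted over the 6 were both 1.00.

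What differed among the inputs was how steeply density rose with acetylation. Shared regions were put into 5 equal groups of 2510 by their mean H3K27ac tags per kb over all 10 libraries. In the least acetylated group, of which 6.69% lay at gene starts, the median input density of the 10 libraries ran from 2.34 to 4.57. In the most acetylated group, of which 76.6% lay at gene starts, it was 18.6, 11.2, 23.5, 7.70 and 6.39 in young replicates 1 to 5. The old replicates had 12.1, 11.3, 11.1, 8.75 and 12.3 there. Young replicates 3 and 1 thus stood far above all the others, and young replicates 5 and 4 below them. The ratio of the most to the least acetylated group was 10.03 in young replicate 3, 5.37 in young replicate 1 and 1.65 in young replicate 5, against 2.08 to 3.88 in the old libraries. The region list of young replicate 5 also stood apart in its fragment length, 620 bp against 414 to 444 bp, and had the greatest H3K27ac depth. Whether this bears on its gradient was not tested. On the log2 scale this gradient was 1.52 ± 0.97 in young and 1.26 ± 0.28 in old inputs (SD, n = 5 each; exact permutation p = 0.611, adjusted p = 1.00 over 6 tests). The difference of −0.25 rested on young replicate 3, without which it was 0.09.

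**Figure D1:**
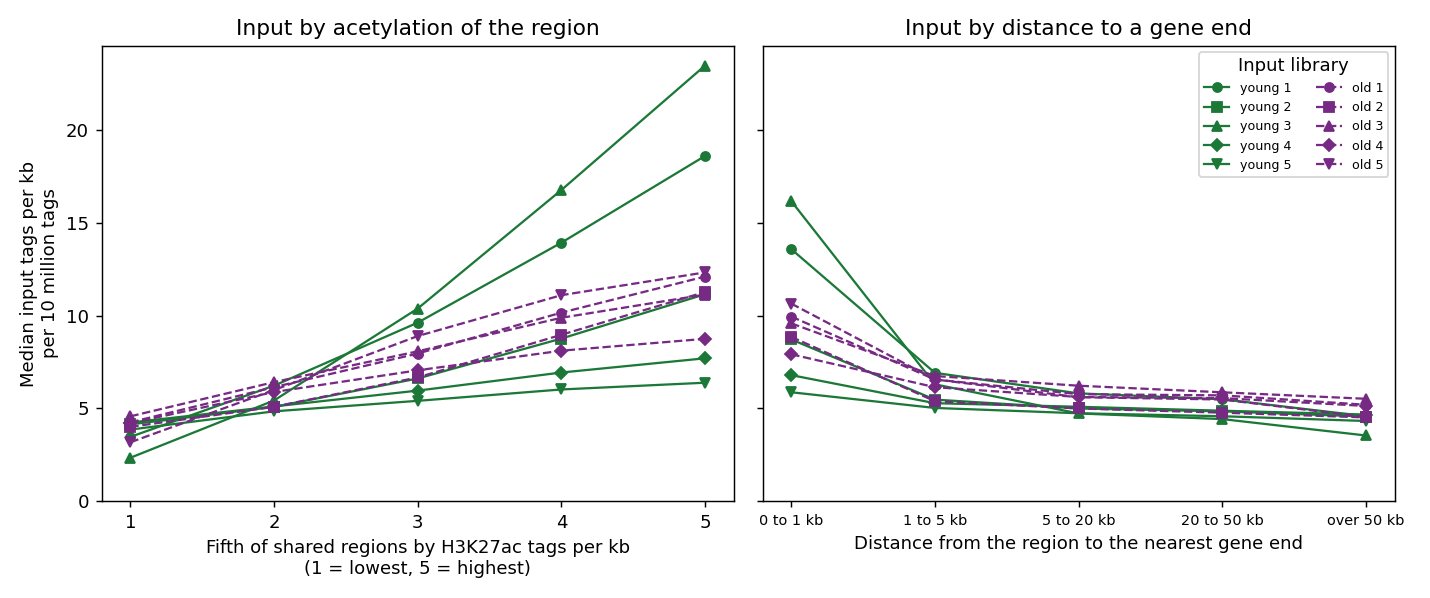
Median input tags per kb, for libraries of 10000000 tags, in each of the 10 input libraries (young, solid green; old, dashed purple), on the left for 5 equal groups of shared regions ordered by H3K27ac tags per kb and on the right by distance from the region to the nearest end of a protein-coding gene. Young replicates 3 and 1 rise to 23.5 and 18.6 in the most acetylated group, young replicates 4 and 5 stay at 7.70 and 6.39, and the old libraries lie between 8.75 and 12.3.

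Distance to genes repeated this order. A total of 6748 shared regions lay within 1 kb of an end of a protein-coding gene, with median H3K27ac of 95.9 tags per kb. Their median input density was 10.2 ± 4.46 in young and 9.40 ± 1.05 in old inputs (SD, n = 5 each; exact permutation p = 0.690). Single libraries ran from 5.87 (young replicate 5) to 16.2 (young replicate 3). In the 1413 regions over 50 kb from any gene end, with 42.4 H3K27ac tags per kb, density was 4.34 ± 0.462 in young and 4.98 ± 0.440 in old inputs (exact permutation p = 0.0794). In the 3 bins between, old inputs were also higher, by 0.481, 0.569 and 0.633 tags per kb at 1 to 5, 5 to 20 and 20 to 50 kb. None of the 5 bins passed after adjustment (exact permutation, adjusted p = 0.172 at the lowest), and the ages overlapped in each. The log2 step from over 50 kb to within 1 kb of a gene end was 0.99 ± 0.66 in young and 0.79 ± 0.20 in old inputs (exact permutation p = 0.579, adjusted p = 1.00 over 6 tests). Without young replicate 3 the difference of −0.19 became 0.04.

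At matched acetylation the place of a region made little difference in the most and least acetylated groups. It made more in the 3 groups between, though less so in young replicate 5. In the most acetylated group the median input density of young replicate 3 was 23.5 at 1924 gene starts, 21.3 at 65 regions inside genes and 23.6 at 500 regions between genes. Old replicate 1 had 12.2, 11.2 and 11.9 at the same places, and young replicate 5 had 6.37, 6.31 and 6.47. At 168 gene starts in the least acetylated group the same libraries had 2.31, 3.84 and 3.61. The 958 regions between genes in that group had 2.18, 4.28 and 3.81. In the 3 groups between, gene starts were denser. In young replicate 3 they had 7.02, 11.5 and 17.7 in groups 2, 3 and 4, against 5.00, 9.10 and 14.9 between genes and 4.95, 8.43 and 11.7 inside genes. The gap was small in young replicate 5, with 4.99, 5.43 and 6.12 at starts. It had 4.76, 5.37 and 5.71 between genes and 4.86, 5.40 and 5.79 inside genes. Weakly acetylated starts were thus low in input too in young replicates 3 and 5 and old replicate 1.

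Input at gene starts also rose with the base composition of the promoter. The 5670 shared regions with a RefSeq promoter were put into 5 equal groups by the G+C of that promoter, from a median of 49.7% to one of 73.3% with 9 and 37 CG dinucleotides. The median input density rose from 9.26 to 23.3 in young replicate 3 and from 8.65 to 18.01 in young replicate 1. It rose from 5.08 to 6.33 in young replicate 5 and from 6.40 to 8.78 in old replicate 4. In the richest group the ages had 13.5 ± 7.11 and 11.5 ± 1.61 (SD, n = 5 each; exact permutation p = 0.587). Acetylation rose along with G+C, from a median of 71.6 to 121.9 H3K27ac tags per kb, and the part of each was not tested. Across the same regions within a library, Spearman's rho of input density with promoter G+C was 0.27 (young replicate 5) to 0.53 (young replicate 2). Across all 12550 shared regions that with mean H3K27ac per kb was 0.56 (young replicate 5) to 0.84 (young replicate 3). Regions are not replicates and both densities share the called length, so these are descriptions.

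**Figure D2:**
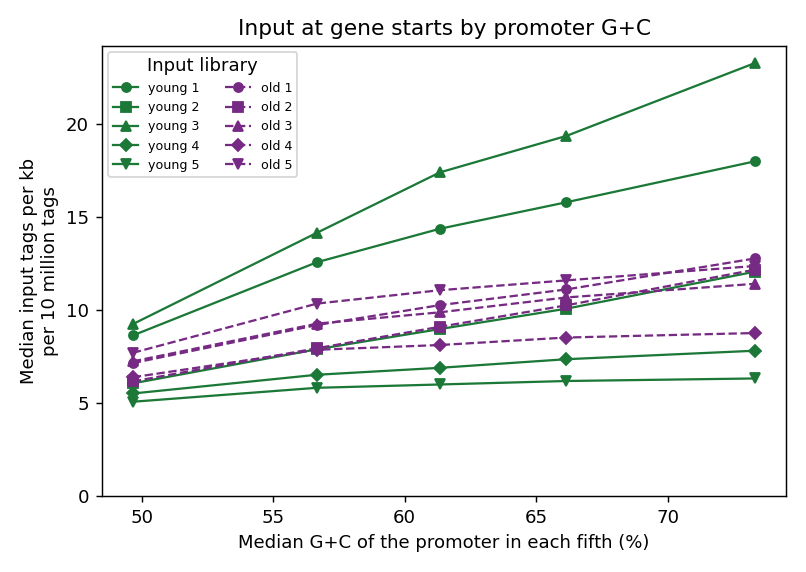
Median input tags per kb, for libraries of 10000000 tags, in the 10 input libraries (young, solid green; old, dashed purple) for 5 equal groups of 1134 gene start regions, placed at the median G+C of their promoters in percent. The line of young replicate 3 climbs from 9.26 to 23.3 and that of young replicate 5 from 5.08 to 6.33.

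The gradient was set beside 5 other properties of the libraries. Against the length of genome called for H3K27ac, from 34.3 Mb (old replicate 5) to 58.9 Mb (young replicate 4), Pearson's r was −0.63 over the 10 libraries (permutation p = 0.0558, adjusted p = 0.197 over 5 relations). Spearman's rho was −0.71 (permutation p = 0.0260, adjusted p = 0.130). The sign is that of less called genome where the input gradient is steep, but neither value passed after adjustment. The gradient is made from densities divided by called length, so the 2 quantities are not independent. Without young replicates 3 and 1, which lay farthest from the median gradient, r was −0.73. For the number of regions, the depth of the H3K27ac library, the depth of the input and the share of H3K27ac tags in regions, r was −0.58, −0.47, −0.29 and −0.20 (permutation, adjusted p from 0.197 to 0.585) and rho −0.56, −0.54, −0.52 and −0.04 (permutation, adjusted p from 0.168 to 0.920). Without the same 2 libraries r was −0.58, −0.67, −0.53 and −0.38. Each age alone holds too few libraries for a coefficient.

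Genes of 3 fixed lists differed in how far the libraries spread, and none passed the test between ages. Of 15 strongly expressed hepatocyte genes, which share 14 regions, all were measured. Their median input density was between 5.11 (young replicate 5) and 6.49 (old replicate 3), and log2 differences ran from −0.05 to 0.17. At Alb, which encodes albumin, density was only 2.30 ± 1.32 in young and 2.29 ± 0.989 in old inputs (SD, n = 5 each), and at Apoa1, an apolipoprotein gene, 8.53 ± 2.78 and 9.20 ± 2.14. Regions of the 10 ubiquitous genes were denser, with medians between 6.42 (young replicate 5) and 14.2 (young replicate 3). Gapdh, a glycolytic enzyme gene, had 12.9 ± 7.04 and 10.5 ± 1.67, and the elongation factor gene Eef2 16.1 ± 7.09 and 15.4 ± 3.10. Of 9 genes from multicopy families, 8 had a shared region, and their medians ran in another order, from 1.34 (young replicate 3) to 5.85 (young replicate 4). This order was not that of all members. Young replicate 3 was highest at H2-K1, H2-D1 and H2-Q4 (35.4, 32.9 and 31.4), in the most acetylated group, and the other regions of the list were in less acetylated ones. At Alb, outside this list, young replicate 3 was lowest too (0.752). The class I histocompatibility gene H2-K1 had 18.9 ± 11.7 and 13.2 ± 3.03, and the major urinary protein gene Mup3 2.66 ± 1.32 and 1.82 ± 0.618. In these 3 lists 10 of 14, 2 of 10 and 2 of 8 regions were higher in old inputs, against 47.3% of all shared regions, with median log2 differences of 0.06, −0.08 and −0.22 against −0.01. By limma 0 of them passed after adjustment and 0 had an unadjusted p under 0.05. At Nnt, a mitochondrial gene that is partly deleted in C57BL/6J mice, input was 6.94 ± 2.07 and 9.003 ± 3.16. Its region lies at a gene end and does not check the deletion.

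Single regions were compared with limma on log2 of density plus 1, with each library centred on its median. Of 12550 shared regions 0 passed an adjusted p of 0.05 (0%), 346 had an unadjusted p under 0.05 (2.76%; 1.20% higher and 1.55% lower in old inputs), and in 52 the ages did not overlap (0.414%). The quasi-likelihood test of edgeR on recovered tags also called 0, with 318 at an unadjusted p under 0.05. The log2 differences (old minus young) of the middle 90% of regions lay between −0.38 and 0.40, with a median SE of 0.23. Without young replicates 1 and 3, a choice made after seeing the data, 0 regions passed and 934 had an unadjusted p under 0.05. On simulated tags for the same regions the step recovered 49% of 2-fold and 8% of 1.5-fold changes. These tags were drawn without differences in gradient between libraries and with the same spread for every region. A change of 1.5-fold in 1 region was therefore mostly not detectable at this depth.

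The 3 regions of smallest p in each direction did not pass and are given as the extremes of the distribution. The region near Fcgr4, an immunoglobulin receptor gene, lay 7.94 kb from its end (chr1:171037705-171038892). Its input density was 3.76, 2.20, 4.27, 1.95 and 1.85 in young and 10.6, 7.08, 9.56, 5.51 and 5.72 in old replicates 1 to 5. All old values exceeded all young ones, on 2.06 to 7.02 recovered tags per library, and the log2 difference was 1.16 ± 0.22 SE (limma adjusted p = 0.565). The region nearest to Marchf5, a mitochondrial ubiquitin ligase gene, is described with chromosome 19 below, and that at the kinesin gene Kif22 had 4.57 ± 1.55 and 8.13 ± 1.84 (SD, n = 5 each; limma adjusted p = 1.00). The region nearest to Dio3, the gene of a thyroid hormone deiodinase, lay 218.4 kb away (chr12:110058601-110060830). It had 9.05, 8.55, 15.5, 8.73 and 6.15 in young and 5.46, 5.53, 3.82, 3.10 and 3.92 in old replicates. Here all old values lay below all young ones, with a log2 difference of −0.99 ± 0.20 SE (limma adjusted p = 0.565). The regions nearest to the DNA repair gene Ercc1 and at the zinc finger gene Zfp422 differed by −0.74 and −0.70 (limma adjusted p = 1.00 for both). The H3K27ac log2 difference was −0.16 near Fcgr4 (limma adjusted p = 0.812) and 0.07 near Dio3 (limma adjusted p = 0.953).

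Windows of 500 kb pooled the regions to look for larger differences in copy number. Of 1816 windows with at least 3 shared regions 0 passed (0%), 47 had an unadjusted p under 0.05 (2.59%; 0.991% higher and 1.60% lower in old inputs), in 8 the ages did not overlap (0.441%), and 53.1% were higher in old inputs. By edgeR 0 passed and 27 had an unadjusted p under 0.05. The middle 90% of windows differed by between −0.19 and 0.19 on the log2 scale, with a median SE of 0.10. On simulated tags for these windows the step recovered 100% of 2-fold and 87% of 1.5-fold changes. The simulation drew no differences in gradient and the same spread for every window, and it changed 100 windows by each fold at once. Real SEs could be wider, at 0.35 for the window at Dpy19l1 below. The count of 0 thus does not show that changes of these sizes were absent. The window of smallest p held 3 regions at Prkd3, a protein kinase gene, and Qpct on chromosome 17 (79 to 79.5 Mb). Its density was 11.3, 8.02, 15.8, 6.81 and 5.39 in young and 7.70, 6.16, 6.80, 4.74 and 5.95 in old replicates, with a log2 difference of −0.45 ± 0.10 SE after centring (limma adjusted p = 0.560). The raw densities of the ages overlapped and the centred ones did not. The other 2 lowest p-values among windows that were lower in old inputs were at Birc6 on chromosome 17 (74.5 to 75 Mb, −0.38) and Ptbp3 on chromosome 4 (59.5 to 60 Mb, −0.32). Among windows that were higher, they were at Mrps6 and Rcan1 on chromosome 16 (92 to 92.5 Mb, 0.28), at Cpeb3 to Hhex on chromosome 19 (37 to 37.5 Mb, 0.31) and at Chdh and Cacna1d on chromosome 14 (30 to 30.5 Mb, 0.24). For these 5 windows limma's adjusted p was 0.994. Without centring limma called 2 windows as higher in old inputs. They were at Dpy19l1 on chromosome 9 (24.5 to 25 Mb; 3.95 ± 1.93 and 6.40 ± 0.798, SD, n = 5 each; limma adjusted p = 0.000628) and at Hao1 and Plcb1 on chromosome 2 (134.5 to 135 Mb; 4.79 ± 1.76 and 7.32 ± 0.805; limma adjusted p = 0.0461). With centring the log2 differences were 0.69 ± 0.35 SE and 0.57 ± 0.25 SE, as large as the 0.68 ± 0.13 SE and 0.57 ± 0.14 SE without it, and did not pass (limma adjusted p = 0.994 for both). The 2 calls thus rested on smaller SEs, which limma draws partly from other windows of like mean, and not on larger differences. Their p-values do not show that the libraries agree. Both windows were named after their values were seen, and in both young replicate 2 lay among the old values, at 6.35 and 7.57.

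Over all their shared regions X and Y lay below the autosomes in every input library, and no chromosome separated the ages. Over their shared regions the 19 autosomes lay between 0.855 (chromosome 13, young replicate 3) and 1.16 (chromosome 17, young replicate 3) of the mean autosomal density. The X chromosome stood at 0.622, 0.573, 0.678, 0.552 and 0.559 in young and 0.591, 0.586, 0.584, 0.574 and 0.648 in old replicates. All 10 libraries were thus well below the autosomes, and the ages had the same mean of 0.597 (SD 0.0531 and 0.0292, n = 5 each; exact permutation p = 1.00). The ratio depended on which regions were compared. Over the 8 X-linked regions of the most acetylated group it was 0.585 ± 0.0466 in young and 0.566 ± 0.0601 in old inputs, and over the 65 of the least acetylated group 0.750 ± 0.218 and 0.732 ± 0.0992. It was highest in group 2, at 0.860 ± 0.2799 and 0.783 ± 0.101 over 85 regions. In young replicate 3 alone X exceeded the autosomes there (1.28), as it did in groups 1 and 3 (1.12 and 1.06). The 5 regions on Y had 0.260 ± 0.119 and 0.241 ± 0.0681 of the autosomal density (exact permutation p = 0.794), on only 8.16 to 30.5 tags per library. Young replicate 3, with the steepest gradient, was lowest there at 0.0798 and young replicate 4 highest at 0.382. Over the 3 of these regions in the least acetylated group, set against autosomal regions of that group, the means were 0.567 ± 0.0629 and 0.547 ± 0.215. Of the 21 chromosomes 0 differed between ages after adjustment (exact permutation, adjusted p = 0.992 at the lowest) and 0 at an unadjusted p under 0.05. The labels give no sex. The 4 Y-linked genes Eif2s3y, Uty, Ddx3y and Kdm5d each had a shared region, with input means of 1.34 to 2.16 tags per kb, and 0 of 4 were higher in old inputs, against 47.3% of all shared regions. Of 10 X-linked genes 9 had a shared region and 5 were higher in old inputs, and 1 had an unadjusted p under 0.05, against 47.3% and 2.76% of all shared regions. Pdha1, a pyruvate dehydrogenase gene, had 7.54 ± 4.33 in young and 4.64 ± 0.815 in old inputs (limma unadjusted p = 0.0325, adjusted p = 1.00).

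**Figure D3:**
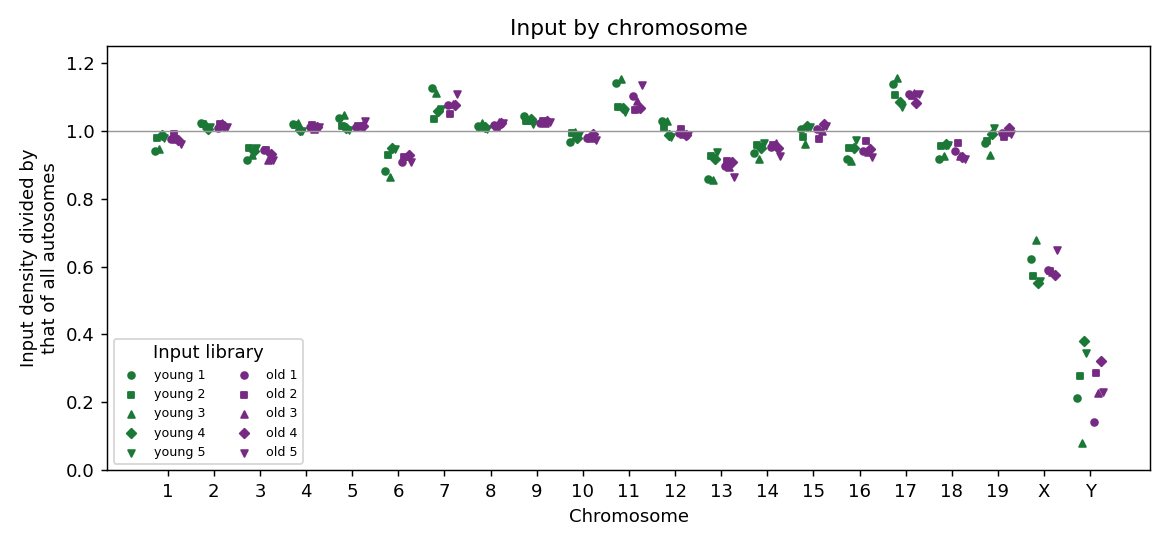
Input density over the shared regions of each chromosome divided by that over all autosomes, 1 point per input library (young, green; old, purple). Autosomes lie between 0.855 and 1.16, X between 0.552 and 0.678 and Y, with 5 regions, between 0.0798 and 0.382, with the ages intermixed.

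A stretch of chromosome 19 from Btaf1 to Exoc6 (chr19:36917550-37684052) was looked at with earlier results of these data known. A copy number difference that holds the insulin-degrading enzyme gene Ide has been described among colonies of C57BL/6J mice. Over its 9 shared regions together, input relative to the autosomes was 0.770, 1.02, 0.929, 0.958 and 0.920 in young replicates 1 to 5. In old replicates 1 to 5 it was 1.28, 1.46, 1.24, 1.05 and 1.17. All 5 old inputs lay above all 5 young ones, though old replicate 4 exceeded young replicate 2 by little. The means were 0.918 ± 0.0909 and 1.24 ± 0.150 (SD, n = 5 each), a ratio of 1.35 and a difference of 0.323. The two-sided exact permutation p was 0.00794, the smallest that 252 assignments can give, or 0.0476 adjusted over the 6 tests. Because the stretch was chosen with earlier results known, the adjustment does not cover that choice, and its p-values are descriptions only. The adjusted call did not hold in every setting. With any 1 young library left out, and relative to the rest of chromosome 19, the exact permutation p was 0.0159, or 0.0952 adjusted. With any 1 library left out the difference was between 0.267 and 0.370, and without young replicates 1 and 3 it was 0.277 (exact permutation p = 0.0357).

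The 9 regions did not move alike. Input was higher in old libraries in 7 of them, against 47.3% of all shared regions, with a median log2 difference of 0.51 against −0.01. In the 23 flanking shared regions 12 were higher, with a median of 0.00. By limma 0 of the 9 passed after adjustment (adjusted p = 1.00 for each), while 4 had an unadjusted p under 0.05 against 2.76% of all regions. The region between Marchf5 and Ide that lies nearest to Marchf5 (chr19:37241494-37244069) had densities of 3.63, 3.08, 0.577, 3.95 and 2.57 in young replicates. In old replicates it had 8.01, 8.05, 8.35, 7.71 and 7.29. Every old input lay above every young one there, with a log2 difference of 1.30 ± 0.34 SE, the largest of the 9. Recovered tags ran from 0.556 to 20.6 per library there. The lowest, in young replicate 3, is at the floor of 0.5 tags, and without that library the difference was 0.90. The next one, nearest to Ide, had 4.82 ± 0.711 and 8.33 ± 0.815 (SD, n = 5 each; log2 difference 0.64 ± 0.19 SE), and raw densities of the ages did not overlap there either. At the start of Btaf1, which encodes an ATPase that removes the TATA-binding protein from DNA, input was 12.9, 9.06, 20.5, 5.83 and 4.90 in young replicates. In old replicates it was 16.4, 21.7, 19.7, 10.4 and 17.3, so that young replicate 3 lay among the old values (log2 difference 0.72 ± 0.24 SE). The mitotic kinesin gene Kif11 had 11.9 ± 4.46 and 18.8 ± 6.52 (0.58 ± 0.25 SE) and Exoc6, an exocyst gene, 2.68 ± 1.04 and 4.35 ± 1.39 (0.51). Hhex, a homeobox gene of liver development, had 0.21. Exoc6 rested on few libraries, with 0.22 without young replicate 3, 0.05 without young replicates 1 and 3 and 0.15 not divided by length. Hhex had 0.10 without young replicate 1 and 0.03 not divided by length, and the region nearest to Marchf5 0.80 without young replicates 1 and 3. The 3 regions at Cpeb3, an RNA-binding protein gene, had −0.06, 0.21 and −0.11, each with a sign that changed under other settings. The CG-rich promoters of Btaf1 and Kif11 printed above are in regions of the most acetylated group, the regions nearest to Marchf5 and Ide in ones without a gene start.

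**Figure D4:**
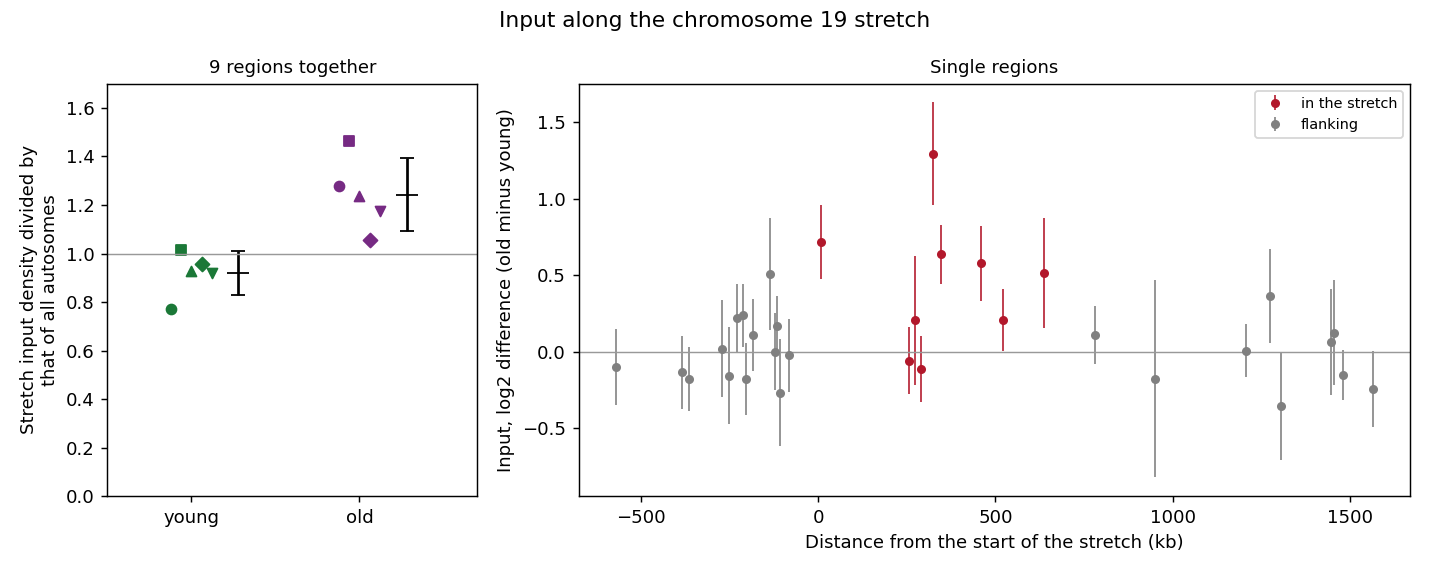
Left, input density over 9 shared regions of chromosome 19 divided by that of all autosomes, 1 point per library with mean ± SD at the side: young inputs lie between 0.770 and 1.02 and old ones between 1.05 and 1.46. Right, log2 difference in centred input density (old minus young, bars SE) of each of these regions (red) and of 23 flanking ones (grey) by distance in kb from the start of the stretch.

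Acetylation in the stretch was set beside its input. H3K27ac was higher in old libraries at Kif11 (log2 difference 1.10 ± 0.13 SE, limma adjusted p = 0.00369), at Btaf1 (0.82 ± 0.09 SE, limma adjusted p = 0.00261) and near Ide (1.01 ± 0.21 SE, limma adjusted p = 0.0464). Divided by input per kb, the differences were 0.20 ± 0.26, −0.17 ± 0.25 and 0.11 ± 0.27 (limma, SE, adjusted p = 1.00 for each). The 3 regions with more H3K27ac were among the 4 with input at an unadjusted p under 0.05. None of them passed after division, but 0 of all 12550 shared regions did. Division also removes the called length, and on H3K27ac tags per kb without division Kif11 was still called, as given below. What part input had in these H3K27ac differences was not tested. The region nearest to Marchf5 went from 26.4 ± 27.7 to 46.6 ± 23.5 scaled H3K27ac tags (SD, n = 5 each) with an adjusted p of 0.227 by limma, and to −0.63 ± 0.34 SE after division.

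Dividing by input was also done for all shared regions, to set H3K27ac against the DNA recovered at the same place. With H3K27ac alone limma called 134 of 12550 regions (1.07%), 67 in each direction, and 2156 at an unadjusted p under 0.05 (17.2%; 7.99% higher and 9.19% lower). In 663 the ages did not overlap (5.28%; 2.33% higher). The calls depended on single libraries: with any 1 of the 10 left out they numbered 30 to 60, except 255 without young replicate 1. With H3K27ac over input it called 0 (0%), with 356 at an unadjusted p under 0.05 (2.84%; 1.29% higher), and in 82 the ages did not overlap (0.653%). Division also removes the called length, and on H3K27ac tags per kb with no division it called 40. The median SE was 0.19 for H3K27ac and 0.24 after division. Without young replicates 1 and 3 division left 0 calls as well, but 2200 regions at an unadjusted p under 0.05, and H3K27ac alone 259 calls.

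Input differences at the regions called for H3K27ac were smaller than those of H3K27ac, by which the regions were chosen. At the 67 with more H3K27ac in old hepatocytes the median input difference was 0.11, with 48 of 67 higher and 3 at an unadjusted p under 0.05, against 47.3% and 2.76% of all shared regions. At the 67 with less it was −0.01, with 32 of 67 higher and 0 at an unadjusted p under 0.05. At the other 12416 it was −0.02, with 5851 higher. The median H3K27ac difference per kb of the first 2 groups was 0.48 and −0.26, and after division by input 0.29 and −0.29, with 15 and 14 of 67 at an unadjusted p under 0.05, against 2.84% of all shared regions. These regions were chosen by the same contrast of H3K27ac, so larger differences in H3K27ac than in input were set by that choice. The values after division are descriptions too. Input is divided by the length that each H3K27ac library called, which ties both quantities.

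Among the 20 regions at gene ends with the largest H3K27ac changes, 10 in each direction, Kif11 was the only one with an unadjusted p under 0.05 for input, which is near the 2.76% of all shared regions. On H3K27ac tags per kb 2 of the 20, Kif11 and Col12a1, were still called by limma (adjusted p = 0.0168 and 0.0224). At Tmem171, a membrane protein gene, H3K27ac differed by 2.09 ± 0.39 SE (limma adjusted p = 0.0308), input by 0.15 ± 0.23 SE and their ratio by 0.05 ± 0.18 SE. Per kb its H3K27ac was 58.0 in young and 58.2 in old libraries. The interleukin gene Il1f9 had 1.81 for H3K27ac, 0.40 for input and 0.33 for the ratio, and Spaca6, a sperm membrane protein gene, 1.74, 0.03 and 0.69. On tags per kb their H3K27ac differences were 0.77 and 0.75 (limma adjusted p = 0.0503 and 0.0725). Input differed by 0.22 at the collagen gene Col12a1, 0.16 at the melatonin receptor gene Mtnr1a, 0.28 at Pltp, a phospholipid transfer protein gene, −0.05 at Spon2 and 0.06 at Rgs3. At Notch1, a receptor gene, the 3 values were 1.08, −0.14 and 0.38. Of regions with less H3K27ac, Tchh, a hair follicle protein gene, had −2.05, −0.29 and −0.61, and Hao1, the peroxisomal glycolate oxidase of liver, −1.41, −0.21 and 0.07. The inhibitor genes Serpina1e and Serpina3k had −1.16 and −1.06 for H3K27ac and 0.02 and −0.03 for input, with ratios of −0.39 and −0.49. On tags per kb the H3K27ac differences of Tchh, Hao1, Serpina1e and Serpina3k were −0.86, −0.10, −0.33 and −0.48, and that of Notch1 was 0.29. Input differed by 0.08 at Aacs, 0.06 at the folate carrier gene Slc19a1, −0.15 at Pptc7, −0.15 at Coa6 and Tarbp1, 0.19 at Prodh2 and 0.06 at Ciart. Over the 10 regions with more H3K27ac input differences ran from −0.14 to 0.58, with 8 above 0, and over the 10 with less from −0.29 to 0.19, with 5 below 0. In none of the 20 did the input values of the ages separate.

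**Figure D5:**
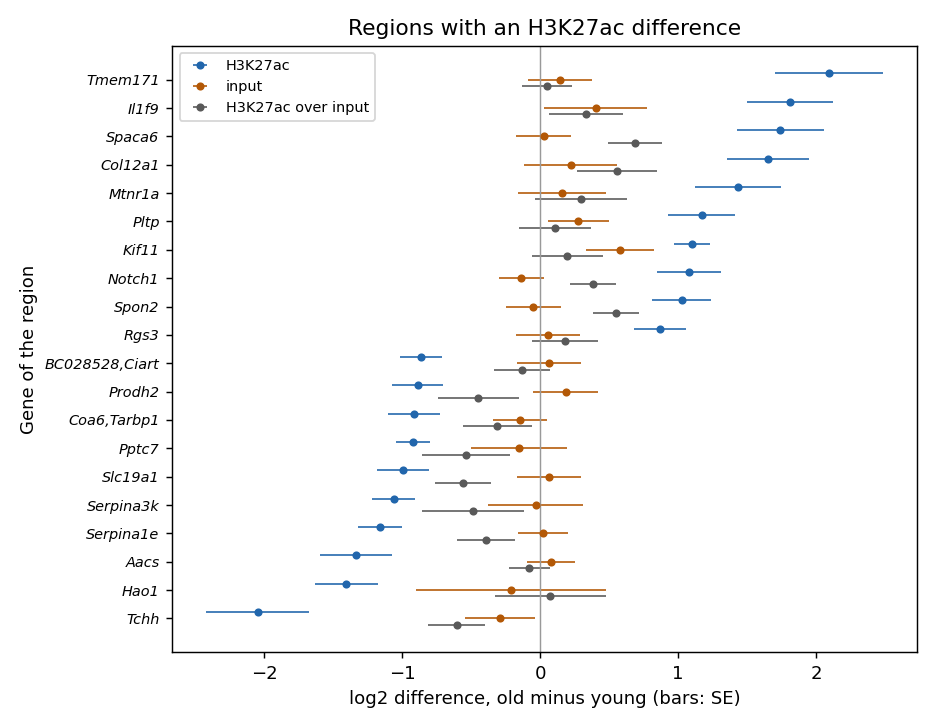
Log2 difference (old minus young, bars SE) in H3K27ac (blue), input density (orange) and H3K27ac over input per kb (grey) at the 20 gene end regions with the largest H3K27ac changes. Input points lie between −0.29 and 0.58 around the line at 0, with Kif11 the farthest to the right. H3K27ac, by which the regions were chosen, runs from −2.05 to 2.09.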

How the data were processed

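The region lists were made by the authors with HOMER in its histone mode on mm10, each library against its own input, per the file headers and the submitters' processing notes. No source used here names the aligner or the HOMER version. Per the file headers, input tags in a region are a signal that the authors brought to H3K27ac depth, rounded to 0.1. In 100% of values (within 0.05) it was a multiple of a step that was fitted to the same values and taken as 0.5 tags. The lowest value, never 0, is a floor of 0.5 tags. The deposited signal of H3K27ac was scaled to 10000000 tags, unscaled tags were deposited in an expected count column, the deposited score ranked regions within a list, and lengths (bp, other) were deposited with them.

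Regions were merged at 1 bp overlap. H3K27ac depth was 6295930 to 15544145 tags. Genes are those of GRCm38.p6 (21883 protein-coding). Values per library were compared by two-sided exact permutation tests, regions and windows by limma 3.58.1, its prior following the mean (log2, pseudocount 1, Benjamini-Hochberg at 0.05), and with edgeR 4.0.16 on recovered tags rounded to whole numbers. At the ends of the density range that prior gives very wide SEs, so none is printed there. R 4.3.3, Python 3.11.15, numpy 2.4.6, pandas 2.3.3, scipy 1.17.1 and matplotlib 3.10.9 were used, and steps were tested on simulated data. Named regions and windows were those past the threshold without overlap, else the 3 of smallest p per direction, plus fixed gene lists, the 5 regions of highest and of lowest input, and 10 H3K27ac regions per direction. Long lists are given by counts and examples, and 1 region that this rule names is not reported here. Members and lists were chosen with earlier results of these data known. Alternatives were each library left out, the replicate number as a block, other scalings, pseudocounts, windows, overlaps and thresholds.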

Additional observations from a re-analysis of the deposited data

Results flagged for a closer look

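In 112 groups of 5 libraries looked at, 3 had 1 library far from the other 4, and chance gives about 1 in 20. The X chromosome in old inputs was one of them, with old replicate 5 at 0.648 of the autosomes against 0.574 to 0.591 in the other old inputs. At the region of Kif22, young replicate 1 had an input density of 7.28 tags per kb against 3.54 to 4.36 in the other young inputs. At the region inside Cpeb3 on chromosome 19, old replicate 3 had 5.71 against 2.68 to 3.19 in the other old inputs.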

How the results depend on the processing

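The counts of 0 regions and 0 chromosomes, and of 0 regions for H3K27ac over input, held under every alternative run. The count of 0 windows did so except without centring, where it was 2. The difference in median input density (0.08) turned to −0.235 with the stricter score and −0.624 under the coverage minimum of 0.5. With single libraries left out it ran from −0.450 to 0.714, the density over called regions (0.07) from −0.485 to 0.787, the distance gradient from −0.348 to 0.0397, the acetylation gradient from −0.482 to 0.0854 and the X ratio (−0.00023) from −0.0130 to 0.0202. None of these passed the exact test in any setting. The chromosome 19 stretch was 0.267 to 0.370 with single libraries left out and 0.313 relative to the rest of its chromosome (exact permutation p = 0.0159, or 0.0952 adjusted over 6 tests).

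Same-numbered young and old inputs did not consistently deviate together, with r of 0.01, 0.28, −0.13, 0.40 and −0.37. Of 5 young inputs 2 correlated best with their own number. These few values cannot tell whether the numbers pair the samples, and the main tests were unpaired. With the replicate number as a block the stretch kept its difference of 0.323 with an exact sign-flip p of 0.0625, the smallest 5 pairs can give, H3K27ac calls numbered 74, and the counts of 0 stayed at 0.

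H3K27ac calls (134) numbered 725 without centring (3.86% higher), 40 on tags per kb (85.0% higher), and 30 (without old replicate 4) to 255 (without young replicate 1) with single libraries left out. Settings chosen after seeing the data gave 209 with the acetylation gradient as a covariate (61.7% higher), 86 without the mean-dependent prior (66.3%) and 259 without young replicates 1 and 3 (71.0%). The cause was not tested.

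Among named regions the 3 at Cpeb3 changed sign. The first (−0.06) was 0.00724 not divided by length, 0.0583 without young replicates 1 and 3, and −0.17 to 0.15 with single libraries left out. The second (0.21) was −0.30 not divided by length, −0.0333 with the covariate, −0.46 without both libraries, −0.0182 without them under cyclic loess, and −0.13 to 0.42. The third (−0.11) was 0.13 and 0.0617 without both libraries, the latter under cyclic loess, and −0.27 to 0.0193. H3K27ac at Aacs turned to 0.0387 on tags per kb. Of 120 alternative values for windows 0 changed their call or sign. Of 320 alternative values for H3K27ac regions 152 no longer passed. Depth limits single regions: near Fcgr4 a value rested on 2.06 to 7.02 tags.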

Other observations

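The regions of highest and lowest input mark the ends of the measured density. Whether reads map uniquely in them was not tested. The region 64.1 kb from Cr2 on chromosome 1 (chr1:195240978-195242504) had the highest mean density, 132.7 tags per kb, with 254.8, 92.6, 223.4, 86.9 and 49.2 in young and 126.8, 108.0, 153.6, 95.6 and 136.1 in old replicates. Its order of young libraries is that of the gradients except at the top. The region nearest to 9530057J20Rik (chr8:20121806-20124206) had 3.98, 68.4, 14.8, 32.4 and 26.0 in young and 54.3, 76.0, 48.5, 39.2 and 71.6 in old replicates. Young replicate 1, one of the inputs with the most tags in acetylated regions, was lowest there. H3K27ac tags of the same libraries were 17.6, 664.6, 97.4, 709.5 and 529.1 in young and 454.6, 507.8, 509.9, 364.2 and 291.5 in old replicates, so young replicates 1 and 3 were low in both. Between these in mean density were the region 29.4 kb from Scaf8 on chromosome 17 (53.6, from 21.7 to 78.3) and that 16.7 kb from Csf2ra on chromosome 19 (46.2, from 23.6 to 95.9). At Hjurp, in contrast, input was even, from 28.2 to 42.0 in all 10 libraries. Among the regions of lowest input were those nearest to Phip, Rngtt, Amy1 and 5430427O19Rik, with means of 0.696 to 1.08 tags per kb, and these belonged to the least acetylated group.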
